A study of Homo sapiens with 3 samples.

Results

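The genes that make cholesterol and fatty acids, and the genes that set and carry sterol levels, were followed across 3 microarrays of T47D, an estrogen receptor α-positive cell line from a human breast carcinoma. The 41 members were listed by their place in these pathways: 18 sterol synthesis enzymes, 13 fatty acid enzymes and 10 regulators and sterol carriers. A member was measured when at least 1 probe set on the array was annotated to that gene alone. This held for 36 of the 41, among 19775 genes measured in the same way. CYP51A1, FADS1 and ELOVL1 had only probe sets shared with another annotated gene, and FDFT1 and ACSL3 were not analysed here. The 36 were covered by 87 probe sets, with 11 genes on 1 probe set and 25 on more.

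All cells were T47D kept for 4 h in medium with 10% charcoal-stripped serum, which removes most steroid hormone, and then treated for 3 h. An array was made from cells given 1 µM ERα17p, a synthetic peptide copied from a stretch of the receptor. Another came from cells given 1 µM estradiol, the natural hormone of that receptor, and the vehicle array came from cells given 0.1% ethanol. The labels state no solvent for the treated cells. Each group was 1 array, so there was no replicate error, and no test or p-value is given. A spread printed as ± is the SD among a gene's own n probe sets. The deposited values lay around 0, each probe set relative to a baseline that is not stated, so levels cannot be compared between genes, and whether T47D marker genes are present cannot be read. Differences between arrays were taken as log2, which is the scale that RMA gives, although the base was not stated. "Higher" and "lower" below refer to differences of at least 1.5-fold (0.58 on this scale) when a count is given. In RNA from whole cultures, fewer cells with a transcript and less of it per cell cannot be told apart.

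The vehicle array was unlike the ERα17p and estradiol arrays. Over all probe sets other than controls its values had an SD of 0.434, against 0.166 on the ERα17p array and 0.158 on the estradiol array. These SDs are of values relative to the unstated baseline, and how it was set can shape them. They do not show which array changed. The control probe set for the 3′ end of ACTB less that for its 5′ end was −0.17 on the ERα17p array, −0.29 on the estradiol array and 0.52 on the vehicle array, and the 18S control probe sets were higher by 1.76 and 1.87 on the treated arrays than on the vehicle array. Every difference from the vehicle reported below rests on that array, and its part in these differences was not tested. The comparison of ERα17p with estradiol does not use it. Of the 9 luminal epithelial markers, 2 were higher and 0 lower with ERα17p (22.2% higher, where 6.88% of all genes were) and likewise with estradiol (6.48% of all genes). Both times these were PGR and CDH1. The 5 stromal markers differed from the vehicle by −0.44 to 0.42 with ERα17p, where 0 passed 1.5-fold. With estradiol they differed by −0.63 to 0.53, and 1 was lower, COL1A1 (20%, where 8.42% of all genes were). The 3 measured of 4 blood cell markers differed by 0.03 to 0.40 with ERα17p and by −0.05 to 0.33 with estradiol.

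Cells make cholesterol from acetyl-CoA through mevalonate, farnesyl diphosphate, squalene and lanosterol, and make fatty acids from the same acetyl-CoA through malonyl-CoA. Both routes are driven by the transcription factors SREBF2 and SREBF1. When membrane sterol is scarce, SCAP escorts these factors from the endoplasmic reticulum to the Golgi for cleavage, and when sterol is plentiful the INSIG proteins hold them back. Excess sterol acts through the oxysterol receptors (LXR) to raise SREBF1 and the exporters ABCA1 and ABCG1. Breast cancer cells use both routes for membrane growth.

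On the treated arrays, 5 enzymes of sterol synthesis and 2 of fatty acid synthesis were lower than on the vehicle array in both comparisons, while SQLE, STARD4 and INSIG2 were higher. The share of all genes that passed in both comparisons is not given here, so these counts over both have no background beside them. With ERα17p, 8 of the 36 measured members were lower (22.2%), where 8.76% of all genes were, and 3 were higher (8.33%), where 6.88% of all genes were. With estradiol, 8 were lower and 3 higher as well, where 8.42% and 6.48% of all genes were. These counts depended on the probe sets used. Without the sets whose identifier ends in _x_at or _s_at, which can match more than 1 transcript, 2 of the 26 members left were lower with ERα17p (7.69%), near the 8.04% of the 17098 genes left, and 5 of 26 with estradiol (19.2%), where 7.88% of genes were. The median difference of the members was −0.25 with ERα17p and −0.16 with estradiol, beside medians over all genes of 0.001 and −0.004. At 2-fold, STARD4 was higher with ERα17p (1.9% of all genes were) and MVD lower (1.87%), and with estradiol SQLE and STARD4 were higher (1.57%) and MVD lower (1.63%). Below 0 were 27 of the 36 with ERα17p (75%) and 25 with estradiol (69.4%), where 49.9% and 50.6% of all genes were. Both comparisons share the vehicle array, so their likeness is not a separate result. PMVK, MVD, FDPS, TM7SF2, DHCR7, FADS2 and ACSS2 were lower in both, SREBF1 was lower with ERα17p alone and ABCG1 with estradiol alone. The values nearest the threshold were NSDHL at −0.52 and FDPS at −0.59 with ERα17p, and SREBF1 at −0.52 and DHCR7 at −0.59 with estradiol. Whether SREBF1 or ABCG1 differed between the treatments in size is given below as the difference between the treated arrays.

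**Figure D1:**
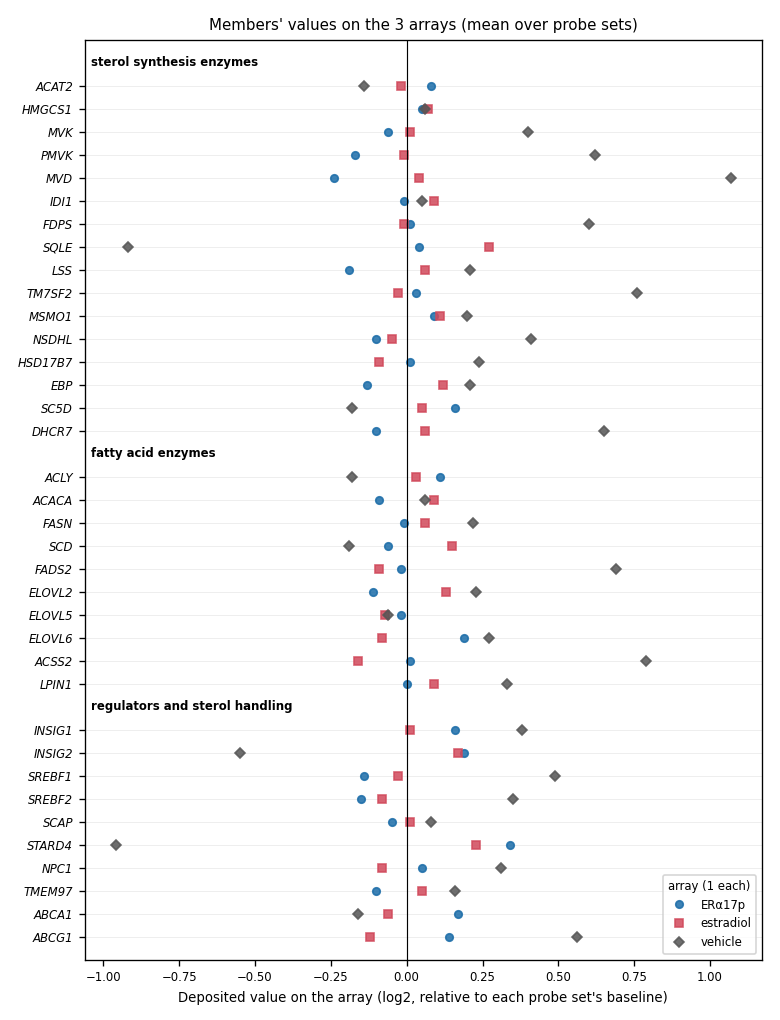
Deposited log2 values (x axis, relative to the baseline of each probe set, mean over probe sets) of the 36 measured genes (y axis) on the ERα17p (circles), estradiol (squares) and vehicle (diamonds) arrays, 1 array each. On each treated array 35 of the 36 genes lie within 0.25 of 0, while the vehicle array runs between −0.96 for STARD4 and 1.07 for MVD.

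Relative to the baseline, the members' values were spread most widely on the vehicle array. How that baseline was set is not stated, so which array departed from the others cannot be read from these values. On the ERα17p array the members ran between −0.24 and 0.34, on the estradiol array between −0.16 and 0.27, and on the vehicle array between −0.96 and 1.07. Within 0.25 of the baseline were 35 of the 36 on each treated array and 17 on the vehicle array, beside 92.9%, 93.8% and 63.8% of all genes on the ERα17p, estradiol and vehicle arrays. On the vehicle array 16 of the 36 members lay more than 0.25 above the baseline, beside 3888 of 19775 genes. More than 0.25 below it were 3 of the 36, beside 3271 of 19775 genes, so the members below were not more frequent than among all genes. The 3 below were SQLE, STARD4 and INSIG2.

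Of the members past 1.5-fold in both comparisons and with a promoter in the table, the 5 with the largest absolute difference averaged over the comparisons are shown, as the members that stood farthest from the vehicle. SREBF2 is added, chosen after its sequence was seen, as the only measured member whose window held the sterol regulatory element searched. Each is 300 bases of GRCh38.p14 from RefSeq, running 250 bases before to 50 after the first start listed for the gene, 5′ to 3′. Capitals mark a motif found on either strand. This is the NF-Y box CCAAT, read as ATTGG where it lies on the other strand, or, once and in SREBF2, the sterol regulatory element. NF-Y is a factor that acts beside SREBF proteins on many sterol genes. SQLE, higher in both, is not among those shown.
STARD4, chr5:111512486-111512785, minus strand: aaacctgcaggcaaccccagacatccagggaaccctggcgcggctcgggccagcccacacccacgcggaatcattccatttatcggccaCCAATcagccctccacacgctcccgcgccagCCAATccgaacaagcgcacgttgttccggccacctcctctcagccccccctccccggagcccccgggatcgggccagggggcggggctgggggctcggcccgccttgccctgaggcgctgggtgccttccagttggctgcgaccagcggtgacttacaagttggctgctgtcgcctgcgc
MVD, chr16:88663042-88663341, minus strand: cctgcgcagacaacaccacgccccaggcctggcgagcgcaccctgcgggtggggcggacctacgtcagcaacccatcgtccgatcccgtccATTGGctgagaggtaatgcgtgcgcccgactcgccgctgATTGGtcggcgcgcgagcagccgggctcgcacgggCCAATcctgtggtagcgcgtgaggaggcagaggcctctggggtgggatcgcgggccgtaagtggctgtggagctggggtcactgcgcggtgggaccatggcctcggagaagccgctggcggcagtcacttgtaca
ACSS2, chr20:34874739-34875038, plus strand: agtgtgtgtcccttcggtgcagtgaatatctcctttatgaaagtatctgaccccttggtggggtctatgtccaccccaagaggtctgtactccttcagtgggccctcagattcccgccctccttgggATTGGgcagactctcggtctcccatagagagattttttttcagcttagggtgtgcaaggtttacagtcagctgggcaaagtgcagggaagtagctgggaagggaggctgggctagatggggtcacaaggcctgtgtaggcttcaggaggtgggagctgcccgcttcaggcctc
TM7SF2, chr11:65111622-65111921, plus strand: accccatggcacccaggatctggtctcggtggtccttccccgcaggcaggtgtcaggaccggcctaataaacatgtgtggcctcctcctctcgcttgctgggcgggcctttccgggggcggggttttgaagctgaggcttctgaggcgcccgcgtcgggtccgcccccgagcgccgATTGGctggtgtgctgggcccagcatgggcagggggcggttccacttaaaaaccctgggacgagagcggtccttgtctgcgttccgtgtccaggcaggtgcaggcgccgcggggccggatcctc
FADS2, chr11:61815953-61816252, plus strand: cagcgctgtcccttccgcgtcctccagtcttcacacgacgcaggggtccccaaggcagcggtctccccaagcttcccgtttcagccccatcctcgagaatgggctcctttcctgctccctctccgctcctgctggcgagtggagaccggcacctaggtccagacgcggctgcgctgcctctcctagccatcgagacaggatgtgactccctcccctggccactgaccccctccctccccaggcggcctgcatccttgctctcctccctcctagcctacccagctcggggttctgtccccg
SREBF2, chr22:41832855-41833154, plus strand: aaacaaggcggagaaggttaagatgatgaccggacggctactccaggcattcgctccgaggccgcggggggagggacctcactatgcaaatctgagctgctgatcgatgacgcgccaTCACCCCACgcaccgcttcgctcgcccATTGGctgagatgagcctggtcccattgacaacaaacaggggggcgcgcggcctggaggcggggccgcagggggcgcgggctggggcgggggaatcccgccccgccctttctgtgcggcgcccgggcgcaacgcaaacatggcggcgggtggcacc

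MVD, the lowest member in both comparisons, held 3 NF-Y boxes, with first bases at −159, −120 and −85 from the start. STARD4, the highest with ERα17p, held 2, at −161 and −130. ACSS2 held 1 at −123 and TM7SF2 held 1 at −74, while none was found in the window of FADS2. In SREBF2 the sterol regulatory element began at −133 and an NF-Y box at −106. The box therefore occurred in promoters of members that were lower and of a member that was higher. Of the 32 measured members with a promoter in the table, 20 held CCAAT (62.5%), where 35.7% of 27305 promoters did, the first listed start of each gene being used. Here and for the other motifs, the 27305 are all genes with a listed promoter, of which 15384 were measured on the arrays. When any listed start counted, these were 23 of 32 (71.9%) and 39.7%, and FADS2 was then among them. The sterol regulatory element, searched as TCACNCCAC on both strands, was in 1 of 32 member promoters (3.12%) and 1.15% of all. The E-box CACGTG, to which SREBF proteins can also bind, was in 6 of 32 (18.8%) and 7.43% of all. Its 6 genes were LSS, SC5D, ELOVL5, INSIG1, SCAP and ABCA1, and none of these 6 passed 1.5-fold in either comparison with the vehicle. Of the 36 measured members, 24 passed in neither. Of 19775 genes, 16682 did not pass with ERα17p and 16829 did not with estradiol, so this does not set the 6 apart. No overlap between motifs was found in the windows shown. These matches describe letters in a window, not bound sites.

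Along the mevalonate route the differences were uneven from step to step. ACAT2, which joins acetyl-CoA units, stood at 0.08 on the ERα17p array and −0.02 on the estradiol array, against −0.14 on the vehicle array. HMGCS1, which makes HMG-CoA, stood at 0.05, 0.07 and 0.06 on the ERα17p, estradiol and vehicle arrays. It differed from the vehicle by −0.01 ± 0.13 and 0.01 ± 0.34 (SD, n = 2 probe sets), with sets at −0.23 and 0.26 with estradiol. The means of these 2 genes thus lay within 0.22 of the vehicle. Those of the kinases and the decarboxylase later in the route did not. MVK, mevalonate kinase, stood at −0.06 and 0.01 on the ERα17p and estradiol arrays, against 0.40 on the vehicle array, and differed from it by −0.45 ± 0.35 (SD, n = 4 probe sets) and −0.39 ± 0.38. PMVK, the next kinase, stood at −0.17 and −0.01, against 0.62 on the vehicle array, a difference of −0.79 and −0.63 on 1 probe set. MVD, the decarboxylase that yields isopentenyl diphosphate, stood at −0.24 with ERα17p and 0.04 with estradiol, against 1.07 on the vehicle array. Its differences of −1.31 and −1.03, on 1 probe set, were the only ones of any member at least 2-fold below the vehicle. IDI1, which isomerises that product, differed by −0.06 ± 0.16 and 0.04 ± 0.24 (SD, n = 4 probe sets). FDPS, which builds farnesyl diphosphate, stood at 0.01 and −0.01, against 0.60 on the vehicle array, and differed by −0.59 and −0.62 on 1 probe set. The gene means of MVK, PMVK, MVD and FDPS were thus below the vehicle on both treated arrays, with IDI1 between them as the exception. MVK did not pass 1.5-fold, and its probe sets ran between −0.65 and 0.18 with estradiol.

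SQLE, the epoxidase that oxidises squalene before ring closure, went the other way. It stood at 0.04 on the ERα17p array and 0.27 on the estradiol array, against −0.92 on the vehicle array. The differences were 0.96 ± 1.02 and 1.19 ± 1.0 (SD, n = 4 probe sets). Its probe sets disagreed in size: they ran between −0.19 and 2.28 with ERα17p and between −0.02 and 2.42 with estradiol, so that 1 of the 4 showed almost no difference. LSS, which closes the ring to lanosterol, differed by −0.41 ± 0.26 with ERα17p and −0.16 ± 0.30 with estradiol (SD, n = 3 probe sets).

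After lanosterol, most enzymes were below the vehicle by less than MVD. TM7SF2, a sterol reductase, stood at 0.03 and −0.03 on the ERα17p and estradiol arrays, against 0.76 on the vehicle array, a difference of −0.73 and −0.78 on 1 probe set. DHCR7, the reductase of the last step, stood at −0.10 and 0.06, against 0.65 on the vehicle array. Its differences were −0.75 ± 0.04 and −0.59 ± 0.08 (SD, n = 2 probe sets), the closest agreement of probe sets among the members that passed 1.5-fold on more than 1 set. NSDHL, which removes carbon at the methylated position of the ring, was next to the threshold at −0.52 ± 0.17 and −0.46 ± 0.07 (SD, n = 2 probe sets). HSD17B7, its partner reductase, differed by −0.24 and −0.33 on 1 probe set open to cross-hybridisation. MSMO1, the methylsterol oxidase before them, differed by −0.10 and −0.09 on 1 probe set. EBP, the sterol isomerase, had 3 probe sets below 0 and 1 above in both comparisons, and its means of −0.34 ± 0.45 and −0.09 ± 0.61 (SD, n = 4 probe sets) were smaller than that spread. SC5D, the sterol desaturase, was above the vehicle on both of its probe sets, by 0.34 ± 0.08 and 0.24 ± 0.07.

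Over the 16 measured sterol enzymes the median difference was −0.37 with ERα17p, with 5 lower (31.2%) and 1 higher (6.25%). With estradiol it was −0.24, again with 5 lower and 1 higher. Of all genes, 8.76% were lower and 6.88% higher with ERα17p, and 8.42% and 6.48% with estradiol. No difference between the lists was tested, and their order was not stable: without the _x_at and _s_at sets the medians with ERα17p were −0.31 for the sterol enzymes and −0.32 for the fatty acid enzymes. For the regulators the mean and the median parted, at −0.01 and −0.24 with ERα17p and −0.06 and −0.24 with estradiol.

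**Figure D2:**
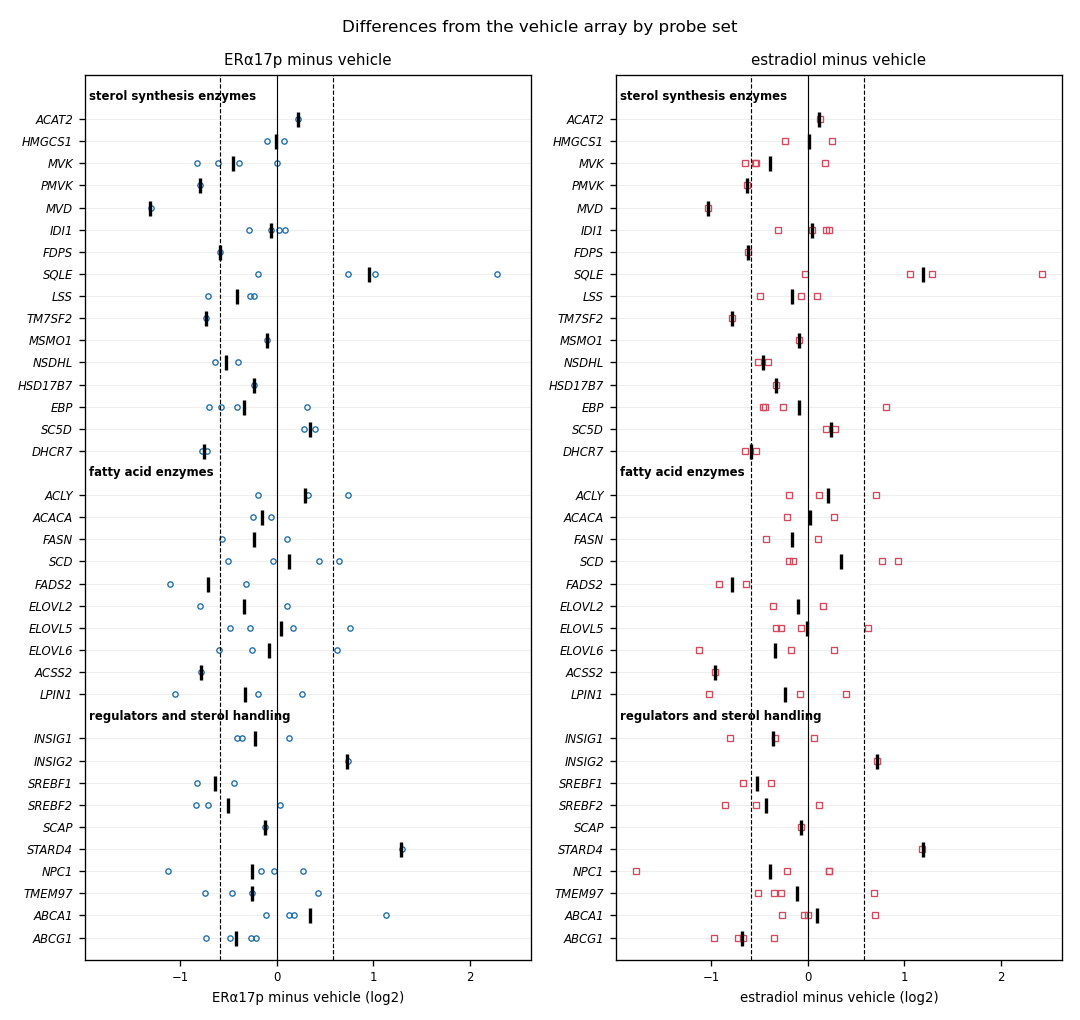
Log2 difference from the vehicle array (x axes) of each measured gene (y axis), ERα17p on the left and estradiol on the right. Open symbols are single probe sets, black bars the mean over them and dashed lines 1.5-fold either way. The bars of MVD and STARD4 lie farthest out with ERα17p, at −1.31 and 1.29, and the probe sets of SQLE spread most widely of any gene there.

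In fatty acid synthesis the members past 1.5-fold were FADS2 and ACSS2. ACSS2, which makes acetyl-CoA from acetate, stood at 0.01 and −0.16 on the ERα17p and estradiol arrays, against 0.79 on the vehicle array, a difference of −0.78 and −0.96 on 1 probe set. FADS2, a desaturase of polyunsaturated fatty acids, stood at −0.02 and −0.09, against 0.69 on the vehicle array. It differed by −0.71 ± 0.55 and −0.78 ± 0.19 (SD, n = 2 probe sets). The core enzymes of the route did not pass 1.5-fold. ACLY, which makes cytosolic acetyl-CoA from citrate, differed by 0.29 ± 0.47 with ERα17p and 0.21 ± 0.46 with estradiol (SD, n = 3 probe sets). ACACA, the carboxylase that makes malonyl-CoA, differed by −0.15 ± 0.14 and 0.02 ± 0.34 (SD, n = 2 probe sets). FASN, the fatty acid synthase, differed by −0.23 ± 0.47 and −0.16 ± 0.38 (SD, n = 2 probe sets). Each of these was smaller than or about as large as the spread of its own probe sets.

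SCD, which puts the double bond into saturated fatty acids, had probe sets on both sides of 0. They ran between −0.51 and 0.64 with ERα17p and between −0.20 and 0.94 with estradiol, with means of 0.13 ± 0.52 and 0.34 ± 0.60 (SD, n = 4 probe sets). The elongases behaved in the same split way. ELOVL2 differed by −0.34 ± 0.64 and −0.10 ± 0.36 (SD, n = 2 probe sets), ELOVL5 by 0.04 ± 0.55 and −0.01 ± 0.44 (SD, n = 4) and ELOVL6 by −0.08 ± 0.64 and −0.34 ± 0.71 (SD, n = 3). LPIN1, a phosphatidate phosphatase of triglyceride synthesis, differed by −0.33 ± 0.67 and −0.24 ± 0.72 (SD, n = 3 probe sets), with probe sets between −1.05 and 0.26 with ERα17p and between −1.02 and 0.39 with estradiol. Over the 10 measured fatty acid enzymes the median was −0.19 with ERα17p and −0.13 with estradiol, with 2 lower (20%) and 0 higher each time. Of all genes, 8.76% were lower and 6.88% higher with ERα17p, and 8.42% and 6.48% with estradiol.

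Among the regulators, both SREBF genes lay below the vehicle. SREBF1, the factor mainly of fatty acid genes, stood at −0.14 and −0.03 on the ERα17p and estradiol arrays, against 0.49 on the vehicle array. It differed by −0.64 ± 0.27 and −0.52 ± 0.20 (SD, n = 2 probe sets), and both probe sets were below 0. SREBF2, the factor mainly of sterol genes, stood at −0.15 and −0.08, against 0.35 on the vehicle array, with differences of −0.50 ± 0.47 and −0.43 ± 0.49 (SD, n = 3 probe sets). Of its probe sets, 2 lay well below 0 and 1 near it. SCAP, their escort, differed by −0.12 and −0.07 on 1 probe set.

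The pair of INSIG genes parted. INSIG2 stood at 0.19 and 0.17 on the ERα17p and estradiol arrays, against −0.55 on the vehicle array, and was higher by 0.73 and 0.72 on 1 probe set. INSIG1, itself a target of the SREBF factors, stood at 0.16 and 0.01, against 0.38 on the vehicle array, with differences of −0.22 ± 0.30 and −0.36 ± 0.44 (SD, n = 3 probe sets).

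STARD4, a soluble carrier of sterol between membranes, was the highest member with ERα17p. It stood at 0.34 on the ERα17p array and 0.23 on the estradiol array, against −0.96 on the vehicle array, a difference of 1.29 and 1.19 on 1 probe set. NPC1, which releases cholesterol from lysosomes, differed by −0.26 ± 0.61 and −0.39 ± 0.95 (SD, n = 4 probe sets), with 1 probe set at −1.13 and −1.78 and the others far closer to 0. TMEM97, a sterol-regulated membrane protein that binds NPC1, differed by −0.26 ± 0.50 and −0.11 ± 0.54 (SD, n = 4 probe sets). The exporters were ABCA1 and ABCG1. ABCA1 stood at 0.17 and −0.06 on the ERα17p and estradiol arrays, against −0.16 on the vehicle array, with differences of 0.34 ± 0.55 and 0.10 ± 0.42 (SD, n = 4 probe sets), smaller than the spread of its probe sets. ABCG1 stood at 0.14 and −0.12, against 0.56 on the vehicle array, with differences of −0.42 ± 0.24 and −0.68 ± 0.25 (SD, n = 4 probe sets), and all 4 of its probe sets were below 0 in both comparisons.

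Probe sets of these genes often disagreed in the comparisons with the vehicle. Of the 25 members with more than 1 set, all sets shared a sign in 9 with ERα17p (36%) and in 6 with estradiol (24%), beside 45.4% and 44.3% of the 10523 genes with more than 1 set. The median SD over the sets of a member was 0.47 with ERα17p and 0.38 with estradiol, beside 0.28 and 0.29 over all such genes. Between the treated arrays all sets shared a sign in 11 of the 25 (44%), beside 37.3% of all such genes. Of the 7 members lower in both comparisons, PMVK, MVD, TM7SF2, DHCR7 and ACSS2 were measured only by probe sets ending in _s_at.

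ERα17p and estradiol arrays lay close to each other for these genes. Of the 36 members, 0 were higher and 0 lower in ERα17p minus estradiol, where 0.521% of all genes were higher and 0.607% lower, so that a count of 0 is near the background. The median difference was −0.04 beside 0.006 over all genes, and the members ran between −0.27 for MVD and 0.27 for ELOVL6. With 1 array each, how far such differences exceed the error between cultures is not known, and closeness here does not show that the agents act alike.

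Within that narrow range, MVD, LSS and EBP were below the estradiol array by more than 0.25 and ELOVL6 and ABCG1 above it by more than 0.25. These 5 of 36 stand beside 15.7% of all genes that differed by more than 0.25. The count is thus near the background and does not set the members apart. MVD differed by −0.27 on 1 probe set. LSS differed by −0.25 ± 0.11 (SD, n = 3 probe sets) and EBP by −0.25 ± 0.17 (SD, n = 4 probe sets), and all probe sets of both were below 0. ELOVL6 differed by 0.27 ± 0.31 (SD, n = 3 probe sets), with 1 set below 0. ABCG1 differed by 0.25 ± 0.23 and ABCA1 by 0.24 ± 0.14 (SD, n = 4 probe sets each), and every probe set of ABCA1 was above 0. SREBF1 differed by −0.11 ± 0.07 (SD, n = 2 probe sets), SQLE by −0.22 ± 0.22 (SD, n = 4) and SCD by −0.21 ± 0.21 (SD, n = 4). Sterol enzymes had a median of −0.06, with 11 of 16 below 0 (68.8%, beside 48.4% of all genes) and a median of 0.01 without the _x_at and _s_at sets, while the median was −0.01 for fatty acid enzymes and 0.06 for regulators and carriers.

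**Figure D3:**
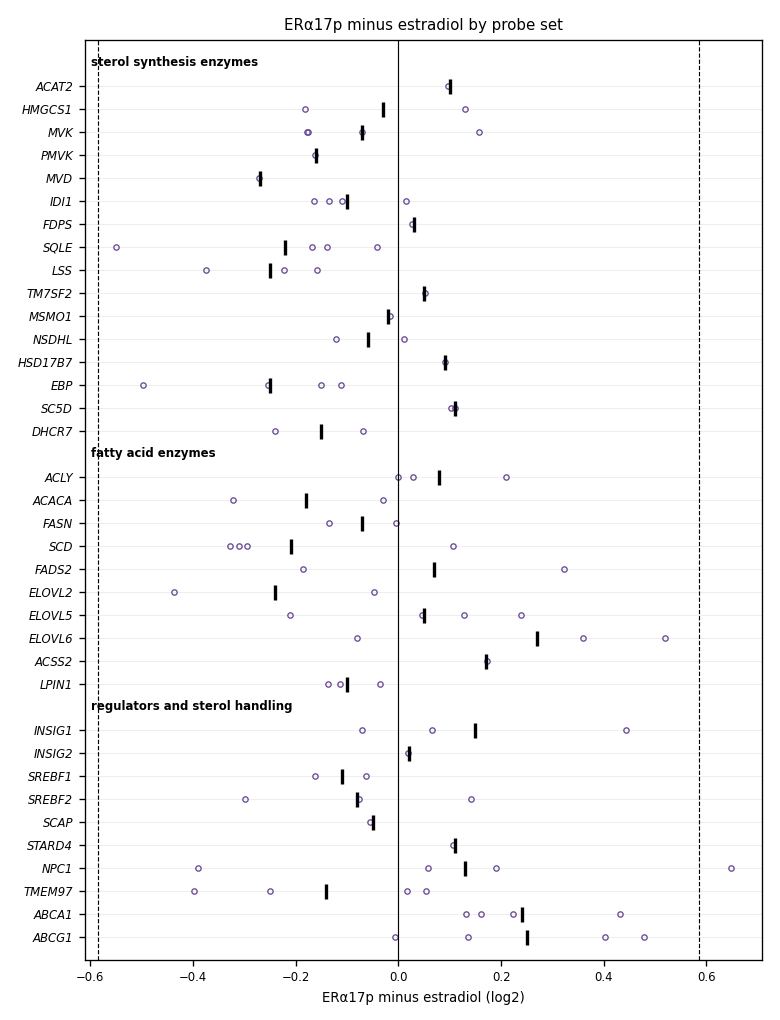
Log2 difference of the ERα17p array from the estradiol array (x axis) of each measured gene (y axis). Open circles are single probe sets, black bars the mean over them and dashed lines 1.5-fold either way. All bars lie between −0.27 and 0.27, and single sets of NPC1 and SQLE reach 0.65 and −0.55.

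Other genes of lipid synthesis and sterol traffic, from lists that hold no member, were mixed. Of 47 measured, 5 were higher and 6 lower with ERα17p, and 4 higher and 9 lower with estradiol, with medians of 0.02 and −0.08. With ERα17p these were 10.6% and 12.8%, beside 6.88% and 8.76% of all genes, and with estradiol 8.51% and 19.1%, beside 6.48% and 8.42%. Among enzymes of fatty acid and lipid synthesis (23 of 25 measured), SLC25A1, the mitochondrial citrate exporter, stood at −0.21 and 0.02 on the ERα17p and estradiol arrays, against 1.42 on the vehicle array, a difference of −1.63 and −1.39 on 1 probe set. TECR, the reductase that ends each elongation cycle, differed by −1.06 ± 0.36 and −1.07 ± 0.37 (SD, n = 2 probe sets). HACD2, a dehydratase of the same cycle, lay on the other side at 1.52 ± 1.18 and 1.42 ± 1.25 (SD, n = 2 probe sets), as did the elongase ELOVL7 at 1.22 and 1.14 on 1 probe set. Enzymes of a single elongation cycle therefore differed from the vehicle in both directions.

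Of the 15 measured genes of sterol sensing, uptake and export, 0 were higher and 2 lower with ERα17p, and 1 was higher and 4 lower with estradiol. Those lower were 13.3% with ERα17p, where 8.76% of all genes were, and 26.7% with estradiol, where 8.42% were. The 1 higher with estradiol was 6.67%, near the 6.48% of all genes, and 6.88% of all genes were higher with ERα17p. NR1H3, an oxysterol receptor of the LXR pair, stood at −0.06 and 0.05 on the ERα17p and estradiol arrays, against 1.11 on the vehicle array, a difference of −1.17 and −1.06 on 1 probe set. STARD3, a late endosomal sterol carrier, differed by −0.88 and −0.85 on 1 probe set, and NPC2, the soluble partner of NPC1, by −0.57 and −0.63 on 1 probe set. LRP8, a lipoprotein receptor, differed by −0.52 ± 0.48 and −0.61 ± 0.57 (SD, n = 3 probe sets). The 1 gene higher with estradiol was the lysosomal lipase LIPA, named after its value was seen, which differed by 0.47 ± 0.74 and 0.59 ± 0.50 (SD, n = 2 probe sets). None of the 9 measured genes of other sterol and isoprenoid steps passed 1.5-fold against the vehicle. They ran between −0.19 and 0.31 with ERα17p and between −0.25 and 0.34 with estradiol. Of 19775 genes, 16682 did not pass with ERα17p and 16829 did not with estradiol. Between the treated arrays, 0 of the 47 passed 1.5-fold, where 0.521% of all genes were higher and 0.607% lower.

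**Figure D4:**
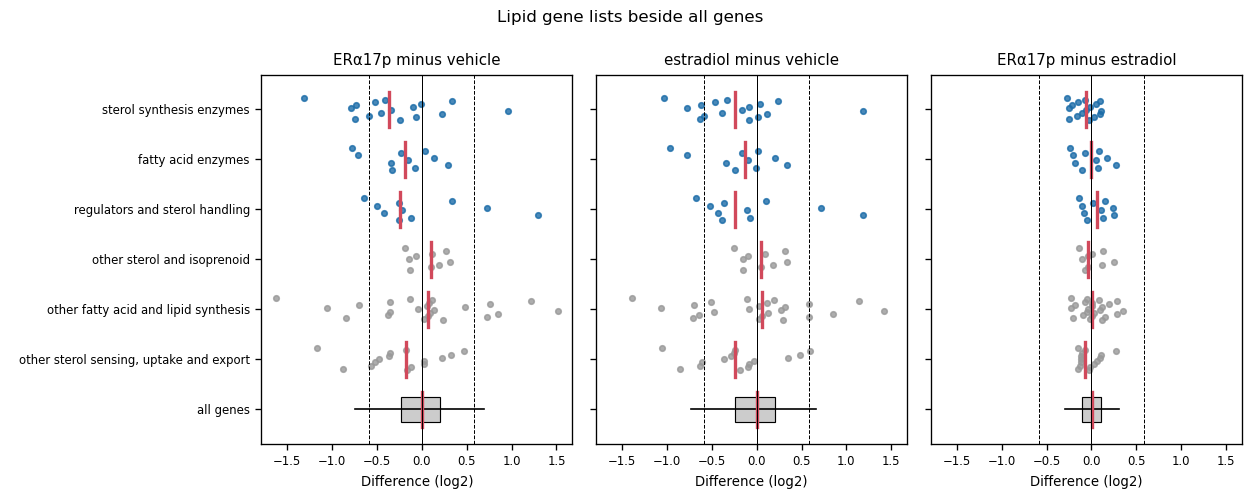
Log2 differences (x axes) of the 3 member lists (blue points, 1 per gene), 3 lists of other lipid genes (grey points) and all 19775 genes (box for the quartiles, line for the 5th to 95th percentile), with red bars for medians and dashed lines for 1.5-fold, in ERα17p minus vehicle, estradiol minus vehicle and ERα17p minus estradiol. The sterol enzymes have medians of −0.37, −0.24 and −0.06 in the 3 panels.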

How the data were processed

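RNA of T47D cells was read on Affymetrix HG-U133 Plus 2 chips after biotin labelling, per the labels' protocols, with 1 array per group. The authors deposited what were taken as log2 values from RMA, a method named in the submitters' processing notes. Its version, the centring step and the baseline are not stated there. Of 54675 probe sets, 62 were controls and 41091 had 1 gene in the platform annotation. A gene's value was the mean over these sets. Differences were ERα17p minus vehicle, estradiol minus vehicle and ERα17p minus estradiol, counted at 1.5-fold. With 1 array per group there was no test, and the number of arrays limits the precision. The members, lists, motifs and naming rule (all members, and up to 4 other genes per list and comparison by size) were chosen with earlier results of these data known. Promoters were matched by symbol to RefSeq (GRCh38.p14), for 32 of the 36 measured members. The averaging over probe sets was checked on simulated arrays that all had the same noise. The arrays here did not have equal spread, so that check does not bear on the error of the comparisons. Tables were computed in Python 3.11.15 with pandas 2.3.3 and numpy 2.4.6, correlations with scipy 1.17.1 and figures with matplotlib 3.10.9. Alternatives were the median of probe sets, probe sets ending in _x_at or _s_at left out, centred differences, 2-fold, every probe set past the threshold, list means, and probe sets in place of genes.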

Additional observations from a re-analysis of the deposited data

How the results depend on the processing

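Of 90 values recomputed under the alternatives, 80 stayed within 1.5 times the count or within 0.1 of the list median, a tolerance chosen after the data were seen, and 10 moved. Some of the 90 could hardly move. Centring shifted differences by only 0.001, −0.004 or 0.006, and a stricter cut cannot change a count of 0. The share that stayed is therefore not a measure of stability. At 2-fold, with ERα17p 1 member was higher (STARD4) and 1 lower (MVD), and with estradiol 1 was lower (MVD). Without probe sets ending in _x_at or _s_at, 26 members were left, of which 2 were lower with ERα17p (FDPS and SREBF1) and 5 with estradiol (FDPS, FADS2, ELOVL6, INSIG1 and ABCG1). Fewer members tested accounts for the loss of PMVK, MVD, TM7SF2, DHCR7 and ACSS2, while FADS2 was at −0.32 with ERα17p on its remaining set. SQLE was then no longer higher with ERα17p, which left 2 of 26 members higher (7.69%), near the 6.45% of the 17098 genes left. The median of the fatty acid enzymes was then −0.32 with ERα17p over 6 genes, and that of the regulators −0.09 with estradiol. Means in place of medians gave −0.01 and −0.06 for the regulators with ERα17p and estradiol, and probe sets in place of genes −0.26 for the sterol enzymes with ERα17p. In ERα17p minus estradiol, leaving out the _x_at and _s_at sets took the medians of all members and of the sterol enzymes to 0.01. Leaving out the vehicle array leaves only that comparison, with 0 members past 1.5-fold. No paired analysis was possible because each group had 1 array. Signal over background is unknown, since no absolute level was kept.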

Other observations

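Promoter base composition and gene length, which did not choose the members, were set beside the differences as a description. The 7 members lower in both comparisons with the vehicle had a median promoter GC content of 66.7% (55.3% to 75%), against 68% over the other 23 measured members with a promoter that passed in at most 1 comparison, and INSIG2 and STARD4 lay at 66% and 69%. Over the 32 members, Pearson's r between GC content and ERα17p minus vehicle was 0.03, and it was −0.11 over 15384 genes. With the log10 of the gene's span in the genome, r was 0.14 over the members and 0.21 over 15383 genes, and for estradiol minus vehicle 0.08 and 0.22. In ERα17p minus estradiol, r with GC content was −0.39 over the 32 members and −0.02 over all genes. These points share the same arrays and are not replicates.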
